A study of Mus musculus with 8 samples.

Results

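The genes described here build the cytoskeleton and the growth cone of neurons: Tubb3, Map2, Mapt, Dcx, Gap43, Stmn2, Nefl, Nefm, Ina and Nes. They were taken by gene symbol, as every probe set that the platform annotation assigns to one of these 10 symbols. This gave 25 probe sets of the 34945 probe sets with 1 symbol on the array, and 0 further probe sets listed a member beside another gene. Levels were measured in 8 mouse cell samples, with 1 array per sample. The 4 tumour lines, numbered 3 to 6, came from tumours in immunocompromised mice that had received JoMa1 cells carrying a MYCN transgene. MYCN encodes a transcription factor of the MYC family and is amplified in aggressive neuroblastoma. A single array carries the label of JoMa1 given GFP as a control, and 3 arrays, numbered 1 to 3, held parental JoMa1, an immortal neural crest precursor line. All samples are cultured cells with a JoMa1 origin, harvested before confluence. JoMa1 was made with a MYC fusion protein that tamoxifen switches on, and the tamoxifen status of each culture was not analysed here. Each tumour line is 1 culture. No label says whether the 3 parental arrays were separate cultures, and the p-values then measure a spread that may be technical.

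Neurons keep their shape with microtubules, which are tubes of alpha and beta tubulin, and with neurofilaments, a class of intermediate filaments. Tubb3 is the beta tubulin isotype that marks young neurons. Map2 and Mapt (tau) bind along microtubules in dendrites and axons, and Dcx (doublecortin) stiffens them in migrating neurons. Stmn2 is a stathmin, which takes microtubules apart, and Gap43 is a membrane phosphoprotein of the advancing growth cone. Nefl, Nefm and Ina (alpha-internexin) are neurofilament subunits, and Nes (nestin) is the intermediate filament of dividing neural precursors. In the neural crest lineage these genes are known to switch on as precursors become sympathetic or sensory neurons, while Nes is lost.

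Promoters of 4 members with at least 1 called probe set are shown here because they are the sequences upstream of the genes whose values follow. The RefSeq table (GRCm38.p6) held promoters of 5 of the 10 genes (Tubb3, Map2, Ina, Nes and Dcx), each running from 250 bases before to 50 bases after a transcript start. Capitals mark matches on either strand to 5 motifs: the E-box CACGTG that MYC proteins prefer, the E-box CAGCTG of neuronal bHLH factors, the GC box GGGCGG, and the left and right parts, TTCAGCACC and GGACAG, of the RE1 element bound by the repressor REST. In the sequences below no match overlaps another.

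Tubb3 (chr8:123411303-123411602, plus strand): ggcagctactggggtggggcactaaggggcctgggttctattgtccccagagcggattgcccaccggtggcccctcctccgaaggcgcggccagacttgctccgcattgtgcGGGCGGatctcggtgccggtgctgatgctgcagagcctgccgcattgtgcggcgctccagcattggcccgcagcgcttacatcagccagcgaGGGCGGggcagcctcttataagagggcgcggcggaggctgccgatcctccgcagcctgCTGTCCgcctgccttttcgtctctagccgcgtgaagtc

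Map2 (chr1:66175079-66175378, plus strand): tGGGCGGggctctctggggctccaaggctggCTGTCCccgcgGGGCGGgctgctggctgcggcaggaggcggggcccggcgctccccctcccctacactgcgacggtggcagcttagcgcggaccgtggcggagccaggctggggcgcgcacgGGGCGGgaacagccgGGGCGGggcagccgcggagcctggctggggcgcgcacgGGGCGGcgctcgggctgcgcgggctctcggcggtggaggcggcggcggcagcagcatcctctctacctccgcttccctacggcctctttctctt

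Ina (chr19:47014431-47014730, plus strand): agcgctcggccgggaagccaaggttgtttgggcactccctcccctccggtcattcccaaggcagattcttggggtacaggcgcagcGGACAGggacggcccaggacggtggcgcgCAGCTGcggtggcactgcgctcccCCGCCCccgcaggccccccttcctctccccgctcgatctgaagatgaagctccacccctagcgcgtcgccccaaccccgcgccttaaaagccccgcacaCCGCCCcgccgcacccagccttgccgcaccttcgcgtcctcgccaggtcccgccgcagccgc

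Nes (chr3:87970843-87971142, plus strand): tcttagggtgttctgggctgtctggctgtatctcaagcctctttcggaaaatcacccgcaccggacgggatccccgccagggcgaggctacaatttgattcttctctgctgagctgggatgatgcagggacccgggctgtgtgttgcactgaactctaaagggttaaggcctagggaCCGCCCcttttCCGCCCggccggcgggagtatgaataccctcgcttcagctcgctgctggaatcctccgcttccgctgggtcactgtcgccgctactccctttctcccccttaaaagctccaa

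The GC box was found 2 times in the Tubb3 window, at positions -138 and -46 from the transcript start, 5 times for Map2, and 2 times each for Ina and Nes. It stood in 35.7% of the 32851 promoters of the table. CACGTG, held by 7.15% of all promoters, matched in 0 of the 6 windows of members, of which Dcx had 2. CAGCTG, held by 16.3%, matched 1 time, in Ina at -135. The right RE1 part GGACAG, held by 22.2%, matched 1 time each in Tubb3 (13 bases into the transcript), Map2 (-219) and Ina (-164), while TTCAGCACC (0.371%) matched in none of the members' windows. These matches describe the letters of the windows and are not evidence of binding. The 4 windows printed were rich in G and C, 67.3% for Tubb3, 77.7% for Map2, 71.7% for Ina and 58.7% for Nes, against a median of 52.7% over all promoters. The 2 Dcx windows, not printed, held 43% and 44.7% G and C, below that median, and 0 matches to any of the 5 motifs.

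The deposited table holds RMA values on the log2 scale, which are relative to the whole array, and 1 unit is a 2-fold difference. As a guide to what little signal looks like, 37 probe sets of 20 genes of tissues not cultured here (liver, pancreas, testis and others) had a median level of 5.01 and a 90th percentile of 7.15 over the 8 arrays. Of those 20 genes Cela1 rose in tumour lines (0.54, adjusted p = 0.0217 in limma) and Tnnt2 fell (-1.53, adjusted p = 8.36e-05 in limma), so the list is not silent throughout. In limma the Cela1 call ended without any 1 parental array (0.49 to 0.58, adjusted p = 0.0504 to 0.0854). Most members lay in that dim range, and levels of different probe sets are compared only as a rough guide to brightness.

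The array labelled GFP-transfected stands apart from the parental arrays. Its brightest Mycn probe set read 11.73, where tumour lines read 14.08 to 14.26 and parental arrays 7.29 to 7.49, which goes against a GFP control label. A second Mycn probe set ran the other way, at 4.53 to 4.69 in tumour lines, 4.33 in the array labelled GFP-transfected and 8.01 to 8.23 in parental arrays. The remaining one differed by 0.30 and was not called (limma adjusted p = 0.0785). The probe sets of this gene thus disagree on the direction of the difference between tumour lines and parental arrays. With both of the first 2, the array labelled GFP-transfected lay away from the parental arrays, on the side of the tumour lines. The SD of its differences from each parental array over all probe sets was 0.557 to 0.571, against 0.163 to 0.194 between parental arrays and 0.286 to 0.368 between tumour lines. Its distance from each tumour line was larger, with an SD of 0.823 to 0.904. Parental arrays differed from tumour lines with an SD of 0.683 to 0.764, so over all probe sets this array was not between the groups. The 14 fibroblast and smooth muscle markers averaged 6.57 in it, against 9.07 to 9.18 in parental arrays. For these markers the array labelled GFP-transfected thus departed from the parental level away from the tumour lines, which averaged 10.16 to 10.71. It is 1 array without a replicate, so its differences are given as sizes with no test, and the test of tumour lines against parental cells does not rest on it. Leaving that array out gave the same called counts of members, 7 higher and 5 lower. This had to be so, because an array alone in its group adds nothing to the spread used in the fit.

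The RNA quality sign of Affymetrix arrays, the 3' minus 5' probe set difference, was 0.517 to 0.613 in tumour lines and 0.627 to 0.641 in parental arrays for Actb. For Gapdh it was 0.0922 to 0.151 in tumour lines and 0.0525 to 0.0782 in parental arrays. Neither gene's values overlapped between tumour lines and parental arrays, Actb being lower and Gapdh higher in tumour lines, and their part in the results was not tested.

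Tumour lines had lost most of the parental signal of the neuronal tubulin Tubb3 and gained signal of Map2 and Gap43. Among the neurofilament subunits, Nefl and Nefm fell while Ina rose. Mapt, Dcx and Stmn2 lay in the range of the genes of other tissues in every sample, and none was called. By the brightest probe set of each gene, 3 of 10 members rose and 3 fell, where 16.4% of the 18193 genes rose and 19.3% fell. Of the 25 probe sets, 7 rose and 5 fell, where 15.5% of all probe sets rose and 18.4% fell, at an adjusted p under 0.05 in limma. The median difference was 0.04 over the 25 probe sets and 0.01 over all probe sets. Called members were thus split between both directions. In whole cultures, fewer cells that express a gene and less RNA per cell cannot be told apart.

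**Figure D1:**
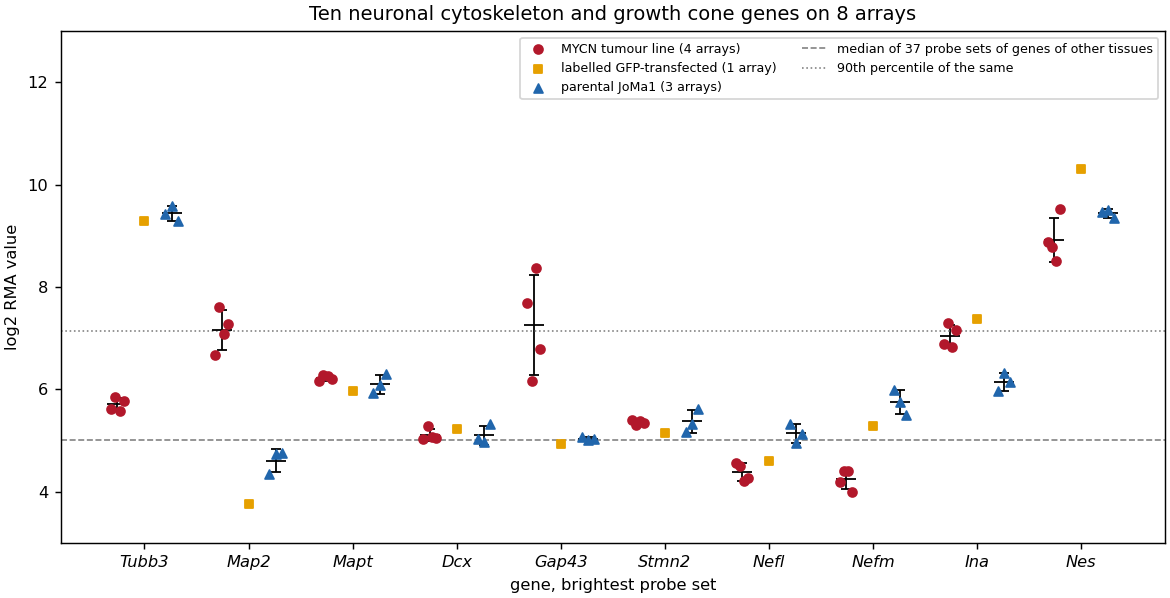
Log2 RMA value (y axis) of the brightest probe set of each of the 10 genes (x axis) on every array, with tumour lines on the left of each gene, the array labelled GFP-transfected in the middle and parental arrays on the right. Black bars give the mean and SD of a group, and grey lines the median (5.01) and 90th percentile (7.15) of genes of other tissues. Tubb3 is low in the 4 tumour lines only, and Map2 and Gap43 are higher in them than on all other arrays. Map2 in lines 3 and 5 and Gap43 in lines 4 and 6 still lie below the 90th percentile line. Ina is higher in the tumour lines and in the array labelled GFP-transfected than in parental arrays.

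Tubb3 gave the largest change among the members. It read 5.62, 5.85, 5.58 and 5.78 in tumour lines 3, 4, 5 and 6, 9.29 in the array labelled GFP-transfected, and 9.43, 9.59 and 9.29 in parental arrays 1, 2 and 3. The tumour lines lay close to each other and far below every other array, and the array labelled GFP-transfected lay at the parental level. The means were 5.71 ± 0.13 in tumour lines (SD, n = 4) and 9.44 ± 0.15 in parental arrays (SD, n = 3). The difference was -3.73 (SE 0.10, 13.3-fold lower), with an adjusted p of 7.03e-08 in limma. By size this was rank 61 among the falls of the 34945 probe sets. Only 1 probe set represents this gene.

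Map2 moved the opposite way. Its brightest probe set, 1434194_at, read 6.67, 7.60, 7.08 and 7.27 in tumour lines 3 to 6, 3.76 in the array labelled GFP-transfected, and 4.34, 4.74 and 4.74 in parental arrays. All tumour lines lay above all other arrays, and the array labelled GFP-transfected read 0.85 below the parental mean. The means were 7.15 ± 0.39 in tumour lines and 4.61 ± 0.23 in parental arrays, a rise of 2.55 (SE 0.21, 5.84-fold, limma adjusted p = 3.08e-05). The other Map2 probe sets moved less. 1440699_at read 4.75, 6.24, 5.15 and 5.41 in tumour lines and 3.88 to 4.07 in parental arrays, a rise of 1.38 (SE 0.29, limma adjusted p = 0.00623). 1421328_at rose by 0.33 (SE 0.10, limma adjusted p = 0.0263), and this call ended when any of the 3 parental arrays was left out (0.32 to 0.35, adjusted p = 0.0602 to 0.0853). 1421327_at differed by 0.12 and was not called (limma adjusted p = 0.379). Tumour line 4 was the highest of the lines with each of the 4 probe sets. Averaged over its probe sets, Map2 rose by 1.09. Which Map2 transcripts each probe set binds was not analysed here.

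Gap43 was raised in every tumour line, but unevenly. It read 7.69, 6.16, 8.38 and 6.79 in tumour lines 3 to 6, 4.92 in the array labelled GFP-transfected, and 5.06, 5.01 and 5.04 in parental arrays. The lowest tumour line still lay above all other arrays, and the tumour lines were spread widely while the parental arrays were nearly equal. The means were 7.25 ± 0.97 in tumour lines (n = 4) and 5.04 ± 0.02 in parental arrays (n = 3). The rise was 2.22 (SE 0.44, 4.66-fold), with an adjusted p of 0.00454 in limma. The SD over tumour lines was the largest among the 25 probe sets, whose median SD was 0.16, against 0.13 over all probe sets. The order of the lines differed from that of Map2: Gap43 was lowest in line 4, where Map2 was highest.

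The neurofilament subunits went different ways. With 1426255_at, Nefl read 3.97, 3.86, 3.90 and 3.91 in tumour lines, 4.40 in the array labelled GFP-transfected, and 5.90, 5.48 and 5.68 in parental arrays. The tumour lines were nearly equal and below all other arrays. The fall was -1.78 (SE 0.10, 3.43-fold lower, limma adjusted p = 4.13e-06). The slightly brighter Nefl probe set 1454672_at read 4.21 to 4.56 in tumour lines and 4.96 to 5.33 in parental arrays and fell by 0.75 (SE 0.12, limma adjusted p = 0.0014). Nefm, the medium subunit that assembles with Nefl, read 4.18, 4.40, 4.40 and 3.99 in tumour lines, 5.29 in the array labelled GFP-transfected, and 5.98, 5.75 and 5.50 in parental arrays. It fell by 1.50 (SE 0.14, 2.83-fold lower, limma adjusted p = 6.56e-05), and the array labelled GFP-transfected lay between the groups for both genes. All these values are dim: every reading of both genes was below the 90th percentile (7.15) of the genes of other tissues. In tumour lines, Nefl 1426255_at and Nefm lay within the range of the bacterial trpnX controls (3.56 to 4.47), where the size of a fall is uncertain.

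Ina, which can form filaments without the other subunits, rose with each of its 3 probe sets. The brightest, 1418178_at, read 6.88, 7.29, 6.83 and 7.16 in tumour lines, 7.38 in the array labelled GFP-transfected, and 5.97, 6.32 and 6.14 in parental arrays. The tumour lines lay above the parental arrays without overlap, and the array labelled GFP-transfected was higher still. The rise was 0.90 (SE 0.13, 1.86-fold, limma adjusted p = 0.000895). The others rose by 0.96 (1448991_a_at, SE 0.13, adjusted p = 0.000522) and 0.54 (1448992_at, SE 0.14, adjusted p = 0.0171) in limma. In limma the call of 1448992_at ended without parental array 1 (0.47, adjusted p = 0.0774) or parental array 2 (0.49, adjusted p = 0.0703). Against the array labelled GFP-transfected, the tumour line mean differed by -0.34, -0.49 and -0.14 for the 3 probe sets. With that array pooled with the parental ones the 3 rises were 0.59, 0.60 and 0.37 and none was called, the adjusted p-values in limma being 0.171, 0.22 and 0.2.

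Nes was bright in every sample with 2 of its 3 probe sets, and only 1 of the 3 was called, as lower in tumour lines. Its brightest probe set, 1449022_at, read 8.87, 8.78, 8.51 and 9.53 in tumour lines, 10.32 in the array labelled GFP-transfected, and 9.47, 9.51 and 9.34 in parental arrays. Tumour lines 3, 4 and 5 lay below the parental arrays, line 6 lay above them, and the array labelled GFP-transfected was the highest. The difference of -0.52 (SE 0.21) was not called (limma adjusted p = 0.0886). With the probe sets of Nes averaged it was -0.46 and called (limma adjusted p = 0.0497), which makes 4 members lower. The probe set 1418289_at read 8.64, 8.51, 8.65 and 9.003 in tumour lines and 9.0004 to 9.16 in parental arrays and fell by 0.36 (SE 0.12, limma adjusted p = 0.0434), a call that 8 of 15 alternatives ended, among them leaving out any 1 parental array (adjusted p = 0.0815 to 0.153) or tumour line 3, 4 or 5 (adjusted p = 0.0833 to 0.092). The third, 1453997_a_at, differed by -0.50 (SE 0.18, limma adjusted p = 0.0574). Line 6 was the highest of the tumour lines with each of the 3. Without line 6 the differences of 1449022_at and 1453997_a_at were -0.72 and -0.64 and both were called (limma adjusted p = 0.00219 and 0.0093). The call of 1453997_a_at was also made with array weights (adjusted p = 0.0433) and with arrays centred on their medians (adjusted p = 0.0448) in limma.

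**Figure D2:**
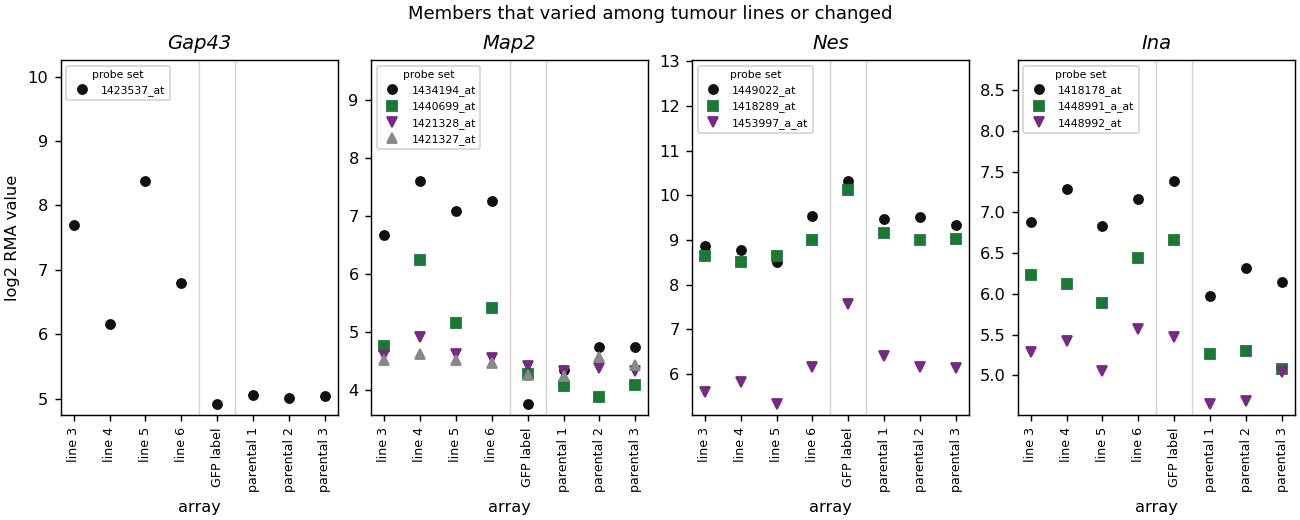
Log2 RMA value (y axis) of every probe set of Gap43, Map2, Nes and Ina on each array (x axis), with tumour lines 3 to 6 first, then the array labelled GFP-transfected, then parental arrays 1 to 3. Each symbol is 1 probe set on 1 array, and the panels have separate scales. Line 4 is lowest for Gap43 and highest for Map2, and line 6 is highest for Nes.

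The remaining members showed no call. The 4 probe sets of Mapt read between 4.35 and 6.28 in tumour lines and between 4.13 and 6.29 in parental arrays, with differences of -0.10 to 0.14 and adjusted p-values of 0.249 or more in limma. The 4 of Dcx differed by -0.08 to 0.04, with a reading of 4.47 to 5.28 in tumour lines and 4.35 to 5.31 in parental arrays. The 2 of Stmn2 differed by -0.02 and -0.05, and its dimmer probe set, at 3.68 to 4.01 in tumour lines and 3.76 to 4.08 in parental arrays, lay within the range of the bacterial trpnX controls (3.56 to 4.47). At such levels a change in a scarce transcript may not be detectable. One probe set of Mapt, 1417885_at, read 5.18 to 5.31 in tumour lines, above all parental arrays (5.03 to 5.16), without being called (0.12, limma adjusted p = 0.249).

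Counted by overlap alone, all tumour lines lay above all parental arrays for 8 of the 25 probe sets and below them for 4, where 19.9% of all probe sets lay above and 22.1% below. The 8 were 3 of Map2, 3 of Ina, 1 of Gap43 and 1 of Mapt, and the 4 were those of Tubb3, Nefl and Nefm.

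**Figure D3:**
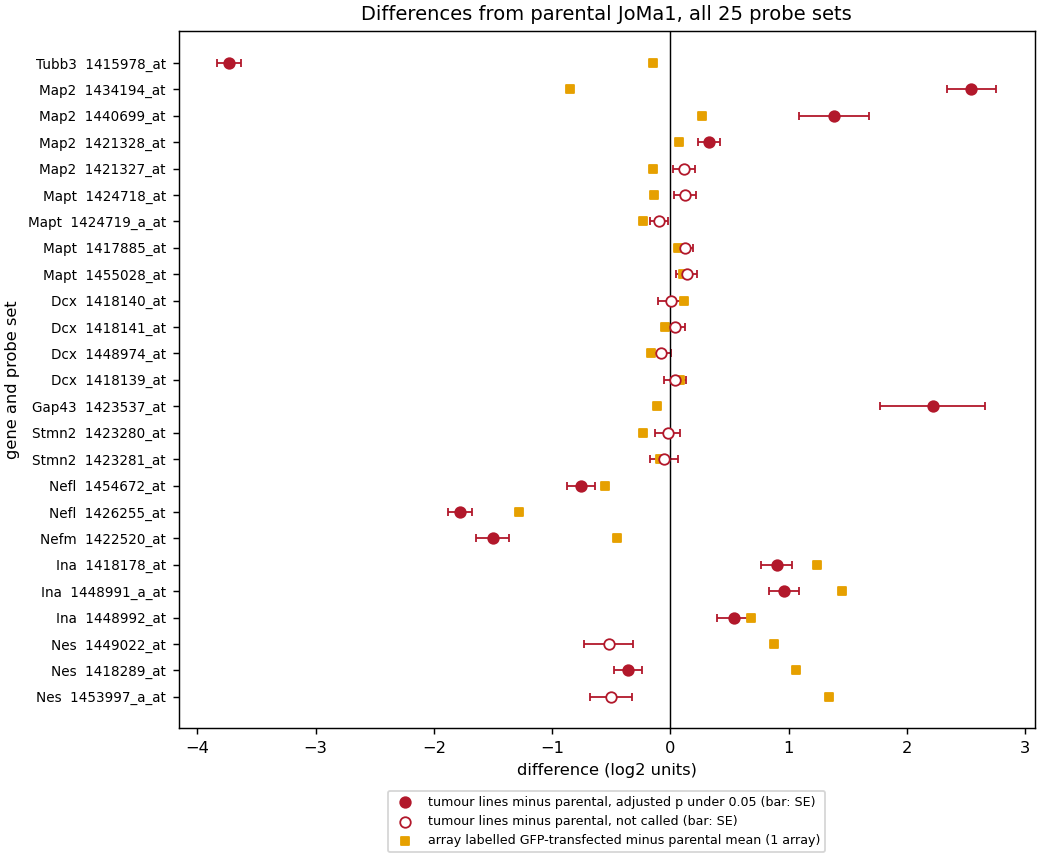
Difference from the parental mean in log2 units (x axis) for each of the 25 probe sets (y axis). Circles give tumour lines minus parental with the SE from the fit, filled where the adjusted p was under 0.05, and squares give the 1 array labelled GFP-transfected. Tubb3, Gap43 and the brightest Map2 probe set separate the tumour lines widely from both, while Map2 1421327_at does not. For Ina the squares lie on the same side as the circles and for Nes on the opposite side.

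Set against the parental mean, the array labelled GFP-transfected differed by at least 1 upwards for 4 of the 25 probe sets and downwards for 1, where 1.97% of all probe sets were that much higher and 3.45% that much lower. The 4 were those of Ina (1.24 and 1.45) and Nes (1.06 and 1.34), and the 1 was Nefl (-1.28). Tubb3 (-0.15) and Gap43 (-0.11) lay near the parental mean. Tumour lines exceeded that array by at least 1 for 3 probe sets and were that much lower for 5, where 6.03% and 5.48% of all probe sets were. The 3 were Map2 (3.40 and 1.12) and Gap43 (2.33), and the 5 were Tubb3 (-3.58), Nefm (-1.05) and Nes (-1.39, -1.42 and -1.85). These comparisons share arrays with that of tumour lines against parental cells, so the values stand side by side and are not independent.

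Genes of the same machinery, and the marker lists after them, were read by their brightest probe sets, to be set against the 16.4% of genes that rose and 19.3% that fell. Of 9 other tubulin isotypes measured, 2 rose and 1 fell, with a median difference of 0.14. The beta tubulin Tubb2a rose by 3.12 (SE 0.38, limma adjusted p = 0.000302), reading 11.65, 10.51, 12.45 and 11.96 in tumour lines, 6.49 in the array labelled GFP-transfected, and 8.64, 8.41 and 8.52 in parental arrays. Its direction was thus opposite to that of Tubb3, and the array labelled GFP-transfected was lowest. Its probe set is of a kind that can bind several transcripts (suffix _s_at). Tuba4a rose by 1.10 (SE 0.13) and Tubb4b fell by 0.58 (SE 0.09), while the widely expressed Tubb5 differed by -0.04 and was not called. In limma the Tuba4a call ended with the array labelled GFP-transfected counted as parental (0.71, adjusted p = 0.165), and that of Tubb4b when its probe sets were averaged (-0.15, adjusted p = 0.0755).

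Of 15 microtubule-associated and plus-end proteins, 1 rose and 8 fell (53.3%), with a median of -0.41. Map1b, which bundles microtubules in growing axons, fell by 1.72 (SE 0.19), with means of 8.64 ± 0.41 in tumour lines and 10.36 ± 0.06 in parental arrays and 10.76 in the array labelled GFP-transfected. Tppp3, a tubulin polymerization factor, fell by 1.04 (SE 0.10) and Dclk1, a doublecortin-like kinase, rose by 1.94 (SE 0.23). Their adjusted p-values in limma were 0.00025 or lower. The Tppp3 call ended in limma with the array labelled GFP-transfected counted as parental (-0.54, adjusted p = 0.405). Of the other 3 stathmins 1 fell, Stmn4 by 0.41 (SE 0.10, limma adjusted p = 0.0152), a call that ended without parental array 2 (-0.34, adjusted p = 0.0659) or 3 (-0.37, adjusted p = 0.0668). Stmn1 differed by 0.10 and was not called. Of 6 other intermediate filament genes 1 rose and 0 fell in limma. Synm (synemin), a bridging filament protein, rose by 1.17 (SE 0.14, adjusted p = 0.00025 in limma), while the heavy neurofilament gene Nefh (-0.10) and peripherin, Prph (0.11), were dim and not called.

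Of 23 growth cone membrane and actin proteins, 2 rose and 8 fell (34.8%), with a median of -0.05. Fez1, a kinesin adaptor for axon outgrowth, fell by 4.44 (SE 0.15, 21.8-fold, limma adjusted p = 2.24e-07), with means of 5.61 ± 0.30 in tumour lines and 10.05 ± 0.07 in parental arrays and 8.77 in the array labelled GFP-transfected. Dbn1 (drebrin), which binds actin where it meets microtubules, fell by 1.37 (SE 0.10), and read 6.94 in the array labelled GFP-transfected, below the tumour lines (8.51 ± 0.18) and parental arrays (9.89 ± 0.08). With that array counted as parental the Dbn1 call ended (-0.64, limma adjusted p = 0.512). Shtn1 (shootin), which links actin flow to adhesion, rose by 1.48 (SE 0.45, limma adjusted p = 0.0325), and the actin bundler Fscn1 by 0.33 (SE 0.07). In limma the call of Shtn1 ended without parental array 1 (1.57, adjusted p = 0.0773), 2 (1.37, adjusted p = 0.11) or 3 (1.51, adjusted p = 0.0867), without tumour line 5 (1.29, adjusted p = 0.0693), and under a trended and robust prior (adjusted p = 0.0796). Basp1, a membrane protein of the same class as Gap43, differed by 0.25 and was not called.

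**Figure D4:**
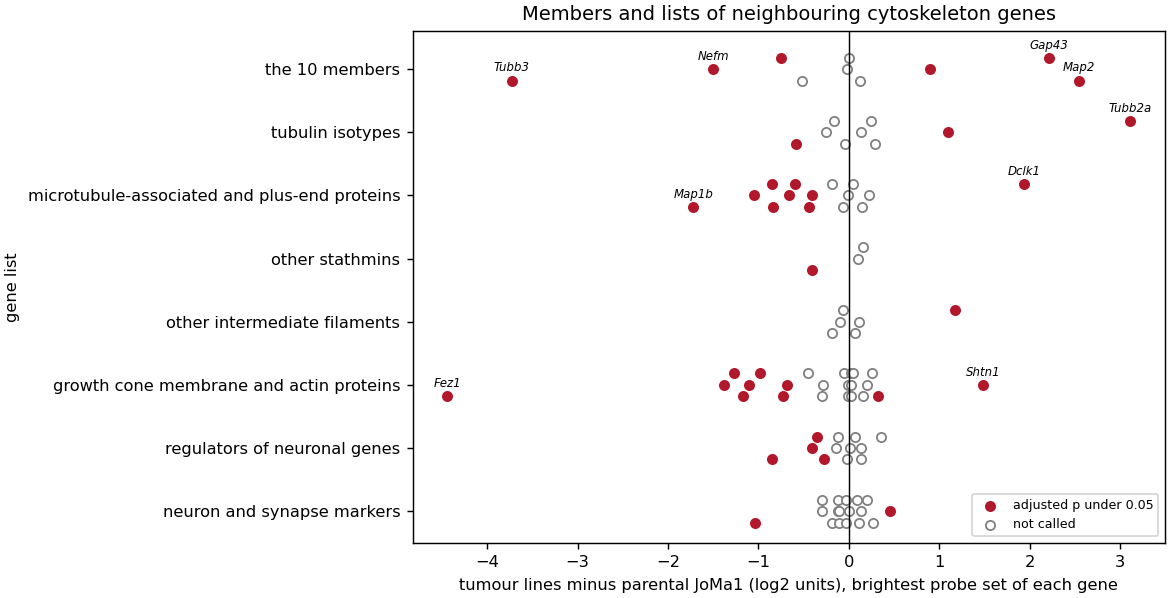
Tumour lines minus parental JoMa1 in log2 units (x axis) for the brightest probe set of each gene in the members and 7 gene lists (y axis), with red points where the adjusted p was under 0.05 and open points where it was not. Points are shifted vertically within a list for legibility, and genes beyond 1.4 are named. Tubb3 (-3.73) and Fez1 (-4.44) lie far to the left and Tubb2a (3.12) far to the right, and 8 of 15 microtubule-associated genes lie to the left as called points.

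Of 12 regulators of neuronal genes, 0 rose and 4 fell in limma, all modestly. Rest, the repressor of neuronal genes outside neurons, read 10.08 ± 0.08 in tumour lines, 10.20 in the array labelled GFP-transfected and 10.36 ± 0.12 in parental arrays. It fell by 0.28 (SE 0.08, limma adjusted p = 0.0307), and 7 of 17 alternatives ended this call, with adjusted p-values of 0.0211 to 0.125 over all of them. Its partners Rcor1 and Rcor2 fell by 0.85 (SE 0.14) and 0.41 (SE 0.12), and the call of Rcor2 ended in 4 of 17 alternatives. The neurogenic factors Neurog1, Neurog2 and Neurod1 read 4.59 to 5.44 on average in tumour lines and 4.61 to 5.22 in parental arrays and were not called.

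Wider neuronal markers were mostly not called. Of 17 neuron and synapse markers 1 rose and 1 fell, and their mean level was 6.08 to 6.21 in tumour lines, 6.04 in the array labelled GFP-transfected and 6.14 to 6.25 in parental arrays. Syn1, a synaptic vesicle protein gene, rose by 0.45 (SE 0.09, limma adjusted p = 0.00377). Eno2, the neuronal enolase, fell by 1.03 (SE 0.08, limma adjusted p = 1.77e-05). Snap25, needed for transmitter release, read 3.60 ± 0.16 in tumour lines and 3.63 ± 0.11 in parental arrays, at the level of the trpnX controls. Others were brighter without a call, the highest being Stx1a, a release protein gene, at 8.41 in tumour lines and 8.53 in parental arrays, and Uchl1, a neuronal ubiquitin hydrolase gene, at 7.85 in tumour lines and 8.15 in parental arrays.

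Markers of other cells were read beside these changes, again against the 16.4% of genes that rose and 19.3% that fell. Of 12 neural crest markers 2 rose and 3 fell (16.7% and 25%), near those shares. Snai2 (12.08 ± 0.22 in tumour lines and 11.55 ± 0.08 in parental arrays) was bright and rose by 0.53, and Msx1 rose by 1.05. Pax3 fell by 1.17 and Zic1 by 4.48, and the Pax3 call ended with the array labelled GFP-transfected counted as parental (-0.87, limma adjusted p = 0.0613). The Zic1 fall (SE 0.73) was uneven: it read 3.85, 4.72, 7.29 and 3.93 in tumour lines 3 to 6 and 9.40 to 9.50 in parental arrays. Foxd3 and Ngfr, which define early crest cells, read 4.68 and 5.36 in tumour lines and 4.59 and 5.40 in parental arrays, near the median of genes of other tissues. Sox10, another defining gene, read 7.42 in tumour lines and 7.34 in parental arrays.

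Gap43 is itself expressed in immature Schwann cells. Of 10 Schwann cell and glia markers, Gap43 included, 3 rose (30%) and 2 fell (20%). Pmp22 differed by 0.94, and Egr2 and Pou3f1 by -2.12 and -2.90. The Egr2 call ended with the array labelled GFP-transfected counted as parental (-1.51, limma adjusted p = 0.0583). S100b read 5.44 ± 0.09 in tumour lines and 5.25 ± 0.11 in parental arrays and was not called. Of 14 fibroblast and smooth muscle markers 7 rose (50%) and 1 fell (7.14%). Their mean level was 10.16 to 10.71 in tumour lines and 9.07 to 9.18 in parental arrays. Cnn1 rose by 5.04 and Thy1 by 3.995, while Col3a1 fell by 0.44. The Col3a1 call ended in limma without any 1 parental array (-0.45 to -0.43, adjusted p = 0.0635 to 0.0752) and with the array labelled GFP-transfected counted as parental (-0.17, adjusted p = 0.675). Their part in the changes of the members was not tested. Of 11 macrophage and leukocyte markers 3 rose (27.3%) and 0 fell in limma, Cd14 by 1.83 and Cd68 by 0.80 among them. Ptprc, which all leukocytes carry, read 4.08 ± 0.04 in tumour lines and 4.14 ± 0.24 in parental arrays. Of 8 endothelial markers 0 rose and 0 fell in limma, and Pecam1 read 4.40 ± 0.10 in tumour lines and 4.55 ± 0.19 in parental arrays. Ptprc and Pecam1 lay below the median of the genes of other tissues in both groups, but not every marker did. The called Cd14 read 9.26 in tumour lines and 7.43 in parental arrays. Csf1r, a macrophage receptor gene, read 7.11 in tumour lines and 7.05 in parental arrays. Kdr, an endothelial receptor gene, read 7.52 in tumour lines, with 8.44 in line 5, and 7.30 in parental arrays, and neither was called. The part of these cell types in the results was not tested.

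Genes with the most similar profile were looked up for members that spanned at least 2 units over the 8 arrays, among 1399 genes that did so. Likeness was the root mean square difference of the centred profiles, and all points share the same 8 arrays. For Tubb3 the closest were Ctla2a (0.145), Kbtbd11 (0.176) and Shroom2 (0.217), whose differences were -3.85, -3.80 and -3.55. Averaged over the probe sets of each gene, the differences of Kbtbd11 and Shroom2 were smaller, at -1.08 and -1.97. For Map2 they were Car5b (0.256), Fmo1 (0.264) and S100a1 (0.287), which rose by 2.57, 2.21 and 2.69. For Gap43 they were Dnmt3l (0.221), Npy (0.262) and Mpo (0.271). Npy, a neuropeptide gene of sympathetic neurons, read 8.85, 6.72, 8.88 and 7.79 in tumour lines 3 to 6, 5.98 in the array labelled GFP-transfected, and 6.01, 6.28 and 5.74 in parental arrays. Its lines stood in the same order as those of Gap43, with line 5 highest and line 4 lowest, and so did those of Dnmt3l. For Mpo line 5 was also highest, and lines 4 and 6 were nearly equal. These genes were picked for a profile like that of Gap43 on these arrays, so a shared order is no separate result.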

How the data were processed

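The authors deposited log2 values made with RMA (background correction, quantile normalization and probe set summary) in Partek, per the submitters' processing notes and the labels; no versions or genome build are given in the sources used here. The table holds 45101 probe sets on 8 Affymetrix mouse arrays. Controls (64), probe sets with several symbols (932) and those without a symbol (9160) were left out of the tests, leaving 34945 probe sets of 18193 genes. Of these, 34741 have a gene ID in the RefSeq table.

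A model with 1 coefficient per group was fitted to all 8 arrays with limma 3.58.1 in R 4.3.3 (lmFit and eBayes). Adjusted p-values are Benjamini-Hochberg values over the 34945 probe sets, and a probe set was called at an adjusted p under 0.05. A gene was read by its brightest probe set, that with the highest mean over the 8 arrays. The single array labelled GFP-transfected has no test, and differences of at least 1 log2 unit were counted. The code was tested on simulated data. The members and gene lists were chosen with earlier results of these data known. The text names all members, Mycn, Rest, up to 2 called genes per list and direction, and the 3 genes closest to each member that spanned at least 2 units. Other genes named were chosen after their values were seen. The number of arrays limits the precision, and the closing section gives the alternatives.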

Additional observations from a re-analysis of the deposited data

Results flagged for a closer look

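Among the 4 tumour lines, 1 line stood far from the other three for 8 of the 66 probe sets examined, by Dixon's ratio of the gap to the nearest line over the whole range set against its critical value for 4 samples. Chance gives about 5% of such groups. Of the 25 probe sets of the cytoskeleton and growth cone genes 4 were among them. Line 4 was the highest for Mapt 1417885_at (5.31, ratio 0.841), Dcx 1418140_at (5.28, ratio 0.881) and Map2 1421328_at (4.90, ratio 0.838). Line 5 was the lowest for Stmn2 1423281_at (3.68, ratio 0.957). Of these 4 only the Map2 probe set was called between tumour lines and parental arrays. Among the other genes, line 3 was the lowest for Col3a1 (13.42, ratio 0.924), Fmo1 (8.92, ratio 0.836) and Ctla2a (3.72, ratio 0.912), and line 4 was the lowest for Cd68 (6.303, ratio 0.865).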

How the results depend on the processing

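Tubb3 was called lower in 17 of 17 alternatives (-3.80 to -3.66) and Gap43 higher in each of its alternatives (1.85 to 2.58). The alternative without the array labelled GFP-transfected could not differ from the main result. Leaving out 1 array at a time, all calls numbered 8937 to 11930 (11843 with all arrays), the members' probe sets called higher 5 to 7 and lower 4 to 7, and the members' genes called higher 3 to 3 and lower 3 to 4. Taking 1 probe set per gene gave 6547 calls and averaging the probe sets of each gene 6463, both among 18193 genes, so fewer features were tested. Averaging moved some differences by over 1.5 times with the call kept in limma: Map2 to 1.09, Nefl to -1.27, Tubb2a to 1.96, Synm to 0.69, Fscn1 to 0.73, Col3a1 to -0.71, Tnnt2 to -1.01 and Mycn to 1.17. Among probe sets above the median level, 0 members rose and 2 fell in limma, and by gene 0 rose and 1 fell, because the dim members were no longer tested. When the parental group also took in the array labelled GFP-transfected, 4 probe sets of members were higher, the 3 of Ina being lost. The sign turned for Dcx and Stmn2 probe sets, none called in any setting. Dcx 1418140_at was -0.0157 with array weights, -0.0357 normalized again, -0.0272 centred on the median and -0.0257 with the array labelled GFP-transfected pooled, where Stmn2 1423280_at was 0.0377. With 1 array left out, Dcx ranged from -0.0677 to 0.1072 (1418140_at), -0.028 to 0.0855 (1418141_at) and -0.051 to 0.1106 (1418139_at), and Stmn2 from -0.1231 to 0.1035 (1423280_at) and -0.1606 to 0.0262 (1423281_at). The cause was not tested. No paired analysis was possible because no label pairs a parental array with a tumour line. Dim signal limits what can be seen for Mapt, Dcx, Stmn2 and the neurofilament genes.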
